A study of Mus musculus with 12 samples.

Results

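Glucocorticoid hormones act through the glucocorticoid receptor, a ligand-activated transcription factor that is held in the cytoplasm by a complex of chaperones and moves to the nucleus when hormone binds. There it turns on genes that restrain its own signalling, damp inflammation and growth factor signals, and switch on amino acid breakdown and glucose production in the liver. In the embryo the rise of glucocorticoid before birth is one of the signals that bring on hepatocyte functions, and synthetic glucocorticoid is a usual supplement of hepatocyte media. The 8 genes described here, *Fkbp5*, *Tsc22d3*, *Sgk1*, *Zbtb16*, *Dusp1*, *Errfi1*, *Tat* and *Hsd11b1*, are widely used readouts of that response. They were chosen by name as glucocorticoid-induced genes, each symbol matched 1 Ensembl mouse gene, and they are 8 of the 53715 genes listed in the count table.

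The libraries measured poly(A) RNA of primary mouse liver cells, all of strain C57BL/6JOlaHsd, in 3 groups of 4 biological replicates. Hepatoblasts, the embryonic progenitors of hepatocytes, were isolated at E14.5 with beads against the surface marker Dlk1, from several pooled embryonic livers for each isolation, and lysed at once. Diff. hepatocytes were such E14.5 hepatoblasts kept 4 days on fibronectin in a differentiation medium with serum, insulin, transferrin, selenium and Matrigel, and with dexamethasone, a synthetic glucocorticoid. Mature hepatocytes were isolated by collagenase perfusion from male mice aged 8 to 12 weeks and lysed at once. Only the Diff. hepatocytes were kept in dexamethasone, which cannot be told apart from the culture itself. Age and isolation likewise cannot be told apart from the groups.

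The 12 libraries held between 19581551 and 25216977 counts. Levels below are CPM, the counts per 1000000 of a TMM-scaled library size, and differences are log2 fold changes from 1 edgeR quasi-likelihood fit of all libraries. Calls required an adjusted p below 0.01 together with a log2 fold change beyond 1 in either direction. Hepatoblasts replicate 1 stood apart by its erythroid markers, which summed to 2276 CPM against 279.6 to 453 CPM in the other hepatoblast libraries although the isolation had a red cell lysis step, and Diff. hepatocytes replicate 1 by its bile duct markers, which summed to 213 CPM against 69.95 to 93.5 CPM. The 6 hepatocyte markers were present in every library, and in bulk RNA fewer cells of a type and less RNA per cell cannot be told apart.

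All 8 genes were called between Diff. hepatocytes and hepatoblasts, 7 of them higher in the cultured cells. *Dusp1* alone was lower. Of the 17779 genes tested, 28.9% were called in this comparison, 14.9% higher and 14% lower. Markers of other cell types differed between the same groups. Summed bile duct markers were 69.95 to 213 CPM in Diff. hepatocytes and 12.9 to 15.1 CPM in hepatoblasts, with 3 of 5 called higher, and mesenchymal markers 782 to 1924 CPM and 480 to 917 CPM, with 2 of 5 called higher. Endothelial markers were 4.75 to 9.86 CPM and 32.2 to 126 CPM, with 5 of 6 called lower, macrophage markers 26.2 to 178 CPM and 71.2 to 293 CPM, with 2 of 8 called lower, and erythroid markers 4.09 to 22.0 CPM and 279.6 to 2276 CPM, with 6 of 6 called lower. No marker was at 0 in these libraries, and the part of other cells in the 8 genes was not tested. The median difference of the 8 genes was 2.01 log2 units, where all tested genes had -0.01. *Tat* and *Zbtb16* showed the largest differences of the 8, with mean levels of 2.33 and 1.40 CPM in hepatoblasts and 725 and 116 CPM in the cultured cells.

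**Figure D1:**
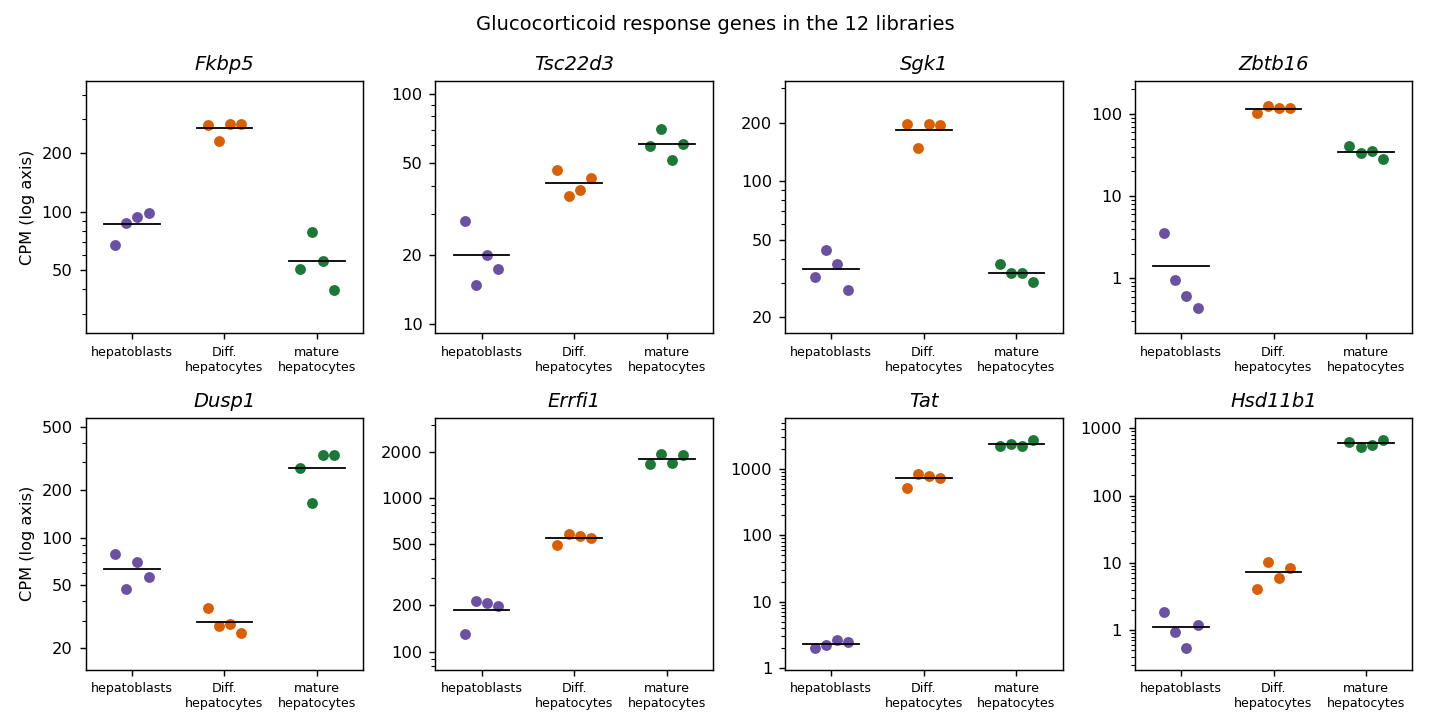
Levels of the 8 genes in each library, in CPM on log axes that differ between panels. Points are the 4 replicates of a group in order from left to right and bars are group means. *Fkbp5*, *Sgk1* and *Zbtb16* were highest in the Diff. hepatocytes and *Dusp1* was lowest there. The other 4 genes had their highest level in the mature hepatocytes on this TMM scale. For *Tsc22d3* that order did not hold for counts per kilobase, which were scaled without TMM factors.

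The 8 genes followed different patterns over the groups. *Fkbp5*, *Sgk1* and *Zbtb16* peaked in the Diff. hepatocytes, above both other groups. *Tat*, *Errfi1* and *Hsd11b1* stepped up from hepatoblasts to Diff. hepatocytes to mature hepatocytes. *Tsc22d3* was higher in both kinds of hepatocytes than in hepatoblasts, and its difference between Diff. and mature hepatocytes was not called and depended on the scaling. *Dusp1* ran the other way in culture, with its lowest level in the Diff. hepatocytes and its highest in the mature hepatocytes. The 3 comparisons share libraries, so they are given below as each gene's own values.

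*Fkbp5* encodes FKBP51, a co-chaperone that binds the receptor complex and lowers its affinity for hormone, and it is among the genes that close the feedback loop of the receptor. The gene spans chr17:28399094-28517527 on the minus strand of GRCm38. The hepatoblast libraries held 67.7, 87.1, 94.3 and 98.2 CPM of *Fkbp5*. The Diff. hepatocyte libraries held 279, 232, 284 and 284 CPM, all of them above every library of the other groups. The mature hepatocyte libraries held 50.6, 78.7, 56.0 and 39.4 CPM, a range that overlapped the hepatoblasts on the TMM scale. As counts per kilobase without TMM factors, the hepatoblast libraries held 27.8 to 33.8 and the mature ones 5.47 to 13.2, with no overlap. The log2 fold change of *Fkbp5* was 1.64 ± 0.18 (SE) in Diff. hepatocytes against hepatoblasts (edgeR, adjusted p = 5.08e-06) and 2.26 ± 0.19 against mature hepatocytes (adjusted p = 2.19e-07). Between mature hepatocytes and hepatoblasts it was -0.63, with a 95% interval from -1.02 to -0.24, and was not called because the change was under the fold threshold (edgeR, adjusted p = 0.00668; exact permutation test, two-sided p = 0.0571). That result rested on the scaling. With library totals the log2 fold change was -1.45 (edgeR, adjusted p = 1.2e-05). With the 50 highest genes dropped from those totals it was -1.28 (adjusted p = 3.49e-05), and both were called lower in mature hepatocytes.

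*Sgk1* encodes serum- and glucocorticoid-regulated kinase, which acts on ion channels and transporters, in part by phosphorylating the ubiquitin ligase NEDD4L. Its libraries held 32.3, 44.5, 37.4 and 27.4 CPM in hepatoblasts and 37.6, 33.7, 33.6 and 30.3 CPM in mature hepatocytes. In the Diff. hepatocytes *Sgk1* stood at 198, 148, 196 and 196 CPM, with no overlap with either group. The log2 fold change was 2.38 ± 0.15 against hepatoblasts (edgeR, adjusted p = 2.6e-08) and 2.45 ± 0.15 against mature hepatocytes (adjusted p = 1.32e-08). That between mature hepatocytes and hepatoblasts was -0.07 with a 95% interval from -0.38 to 0.24 (adjusted p = 0.682). That value rested on the scaling, since with library totals it was -0.92 (edgeR, adjusted p = 0.000104) and with the 50 highest genes dropped from those totals -0.74 (adjusted p = 0.000591), both lower in mature hepatocytes and neither past the fold threshold.

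*Sgk1* has several alternative first exons, and RefSeq gives 6 start sites for it in the promoter table used here, which holds the 250 bases before and 50 after each start. These windows were searched for the glucocorticoid response element, the paired hexamer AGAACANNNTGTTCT that the receptor dimer binds, which reads the same on both strands. Sequence outside the windows was not searched for any gene, so a gene without a match here may hold elements elsewhere. An exact match stood in 3 of all 32851 windows of the table (0.00913%), and 1 of those 3 belongs to *Sgk1*. Its upstream part is printed because it is the only window of the 8 genes with an exact match. It lies at chr10:21993640-21993889 (GRCm38.p6, plus strand), inside the *Sgk1* gene and outside annotated exons, and capitals mark the element and a further half-site.

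Sgk1 upstream window: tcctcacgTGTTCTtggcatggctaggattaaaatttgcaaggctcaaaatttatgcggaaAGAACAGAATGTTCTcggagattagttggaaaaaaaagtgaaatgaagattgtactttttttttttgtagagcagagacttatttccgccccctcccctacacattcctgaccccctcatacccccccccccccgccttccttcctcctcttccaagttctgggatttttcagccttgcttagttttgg

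The element begins 189 bases before the start site, at chr10:21993701-21993715. A second *Sgk1* window held the element with 2 mismatches among its 12 fixed letters, and 1.84% of all windows matched at that level. The counts are per gene, so which start site was in use was not measured. A half-site alone (AGAACA or TGTTCT) stood in 19% of all windows and in 4 of the 15 windows of the members, which covered 7 of the 8 genes. *Zbtb16* had no window in the table. The pieces with the weaker *Sgk1* match and with the half-site of *Tsc22d3*, the other member with one, are set out here for comparison, with the matched letters, mismatches included, in capitals.

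Sgk1, 2 mismatches, chr10:21985914-21985942: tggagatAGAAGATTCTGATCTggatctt
Tsc22d3, half-site, chrX:140600690-140600719: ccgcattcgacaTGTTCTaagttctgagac

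*Zbtb16* encodes PLZF, a zinc finger transcription factor that acts mostly as a repressor. Its hepatoblast libraries held 3.58, 0.955, 0.615 and 0.431 CPM, and the first of these came from the library with the high erythroid markers. Diff. hepatocytes held 102, 126, 117 and 117 CPM and mature hepatocytes 40.2, 33.8, 35.9 and 28.4 CPM. The 3 groups did not overlap. The log2 fold change of *Zbtb16* was 6.37 ± 0.46 in Diff. hepatocytes against hepatoblasts (edgeR, adjusted p = 9.78e-08) and 4.62 ± 0.44 in mature hepatocytes against hepatoblasts (adjusted p = 5.49e-07). Without hepatoblasts replicate 1 these became 7.42 and 5.66, a shift of over 1.5 times on the linear scale. Diff. hepatocytes exceeded mature hepatocytes by 1.74 ± 0.36 (adjusted p = 0.000807). That call was lost under 2 of 25 alternatives, among them the threshold put inside the test (edgeR glmTreat, adjusted p = 0.0271).

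*Tsc22d3* encodes GILZ, a leucine zipper protein that mediates anti-inflammatory effects of glucocorticoids. Hepatoblasts held 27.9, 14.8, 19.9 and 17.4 CPM of *Tsc22d3*, Diff. hepatocytes 46.8, 36.1, 38.3 and 43.2 CPM, and mature hepatocytes 59.8, 70.4, 51.8 and 60.8 CPM. On the TMM scale the groups did not overlap and mature hepatocytes were highest. Against hepatoblasts the log2 fold change was 1.04 ± 0.17 in Diff. hepatocytes (edgeR, adjusted p = 0.000157) and 1.60 ± 0.17 in mature hepatocytes (adjusted p = 1.84e-06). Diff. hepatocytes lay below mature hepatocytes by -0.56, with a 95% interval from -0.93 to -0.20, which was under the fold threshold (adjusted p = 0.00995). Scaled to library totals this difference was -0.03 (edgeR, adjusted p = 0.886). On the per-length scale, which used no TMM factors, the Diff. hepatocytes had the higher mean. A gene's length is the same in every library, so that order came from the scaling. The rise in culture was the smallest of the 7 and sat at the threshold, and it fell to 0.91, 0.97 and 0.97 without hepatoblasts replicate 2, hepatoblasts replicate 4 or Diff. hepatocytes replicate 1. When libraries were scaled to their totals the rise was 0.70 in culture and 0.74 in mature hepatocytes, and neither was called.

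*Tat* encodes tyrosine aminotransferase, which takes the first step of tyrosine breakdown and is the classical glucocorticoid-induced enzyme of the liver. Its hepatoblast libraries held 2.03, 2.21, 2.62 and 2.45 CPM. The Diff. hepatocytes held 520, 849, 798 and 732 CPM of *Tat*, the lowest in replicate 1, and the mature hepatocytes 2228, 2428, 2225 and 2765 CPM. *Tat* thus reached 311-fold over hepatoblasts in culture, a log2 fold change of 8.28 ± 0.20 (edgeR, adjusted p = 2.13e-11). Mature hepatocytes stood at 10.01 ± 0.22 over hepatoblasts (adjusted p = 9.97e-13), and Diff. hepatocytes at -1.73 ± 0.15 against mature hepatocytes (adjusted p = 3.21e-07).

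The enzymes that follow TAT in the same pathway were less uniform. *Hpd*, the next enzyme, was higher in Diff. hepatocytes than in hepatoblasts by 3.17 log2 units, and *Fah*, the last, by 1.86. *Hgd* at 0.24 and *Gstz1* at 0.14, the steps between them, were not called. Over all tested genes 14.9% were called higher in this comparison. All 4 were called higher in mature hepatocytes than in hepatoblasts, between 1.70 for *Gstz1* and 4.77 for *Hpd*, beside 20.1% of all tested genes.

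*Errfi1* encodes MIG6, an inhibitor that binds the EGF receptor and its relatives and promotes their degradation. It was the most abundant member per length in hepatoblasts. Hepatoblasts held 131, 213, 206 and 199 CPM of *Errfi1*, Diff. hepatocytes 497, 588.5, 565 and 549 CPM, and mature hepatocytes 1677, 1952, 1692 and 1901 CPM. The groups did not overlap. The log2 fold change was 1.55 ± 0.14 in Diff. hepatocytes against hepatoblasts (edgeR, adjusted p = 9.08e-07) and 3.27 ± 0.15 in mature hepatocytes against hepatoblasts (adjusted p = 5.76e-10). Diff. hepatocytes were below mature hepatocytes by -1.71 ± 0.14 (adjusted p = 2.61e-07). *Egfr*, the receptor that MIG6 restrains, was also higher in Diff. hepatocytes, by 5.46 over hepatoblasts, and *Erbb3* by 2.07, whereas *Erbb2* at -0.54 was not called. Relative to mature hepatocytes *Egfr* was lower by -2.50 in culture and *Erbb2* higher by 2.78.

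*Hsd11b1* encodes the enzyme of the endoplasmic reticulum that turns inert 11-keto steroid back into active glucocorticoid, drawing NADPH from H6PD. It was the member with the widest gap between cultured and mature cells. Hepatoblasts held 1.84, 0.925, 0.55 and 1.19 CPM of *Hsd11b1*, Diff. hepatocytes 4.02, 10.5, 5.91 and 8.48 CPM, and mature hepatocytes 629, 525, 559 and 671 CPM. The groups did not overlap. The log2 fold change was 2.67 ± 0.33 in Diff. hepatocytes against hepatoblasts (edgeR, adjusted p = 1.25e-05) and 9.04 ± 0.38 in mature hepatocytes (adjusted p = 1.99e-10). Diff. hepatocytes remained at -6.37 ± 0.33 against mature hepatocytes (adjusted p = 2.6e-09). The gene overlaps *Lamb3* on the other strand, and *Lamb3* stood at 2.71, 8.04 and 7.84 CPM in the 3 groups, in the order hepatoblasts, Diff. hepatocytes and mature hepatocytes. The study's methods describe a strand-specific library preparation, but how the counting used strand was not given in the sources used here. The part of *Lamb3* in the low *Hsd11b1* values was not tested.

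The other genes of glucocorticoid activation, inactivation and transport went in both directions. *H6pd* was higher in Diff. hepatocytes than in hepatoblasts by 2.30 ± 0.17 and differed from mature hepatocytes by -0.07, with a 95% interval from -0.42 to 0.27. *Hsd11b2*, which runs the reaction the other way and inactivates the hormone, was lower than in hepatoblasts in Diff. hepatocytes (-2.97 ± 0.47) and stood at 0 to 5 counts a library in mature hepatocytes. *Serpina6*, the corticosteroid-binding globulin of plasma, held 3153 to 5106 CPM in the hepatoblast libraries, 5.25 to 8.48 CPM in the cultured ones and 150.4 to 431 CPM in those of mature hepatocytes. Its log2 fold change of -9.24 ± 0.43 in culture (edgeR, adjusted p = 2.29e-09) ran against that of *Tat*. Over all tested genes, 14.9% were called higher and 14% lower in Diff. hepatocytes against hepatoblasts. Of the 9 genes of steroid handling, 4 were higher and 3 lower by the call, with a median of 0.07. The efflux pump genes *Abcb1a* (1.78) and *Abcb1b* (5.81) were among the 4, and both were also higher than in mature hepatocytes (3.63 and 3.51). *Akr1d1*, a reductase of steroid and bile acid metabolism, was the fourth (3.10). *Akr1c6*, a hydroxysteroid dehydrogenase, was lower (-3.35).

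**Figure D2:**
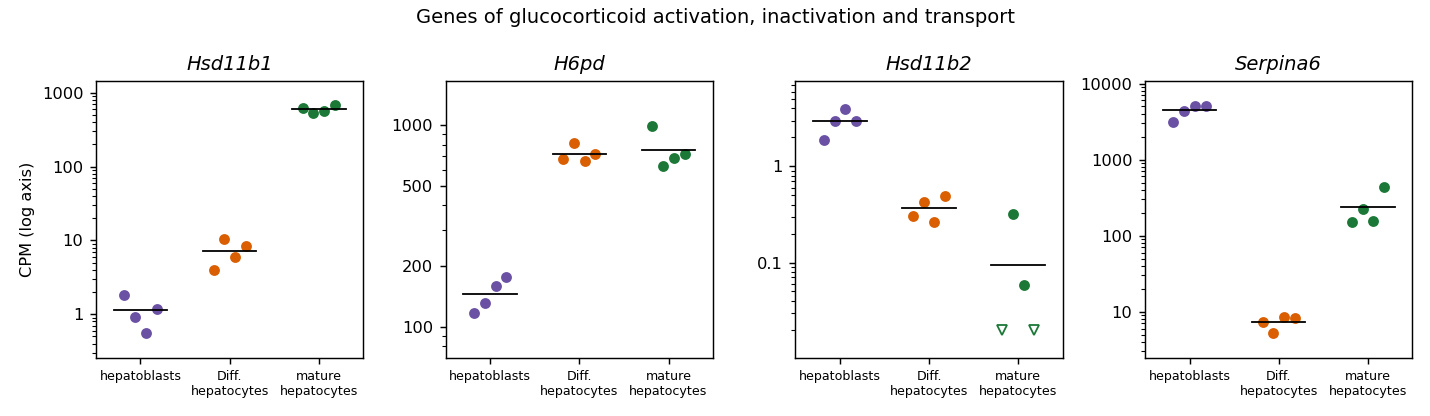
Levels of *Hsd11b1*, *H6pd*, *Hsd11b2* and *Serpina6* in each library, in CPM on log axes that differ between panels. Points are replicates in order, bars are group means, and open triangles at the foot of the *Hsd11b2* panel are the 2 mature libraries with 0 counts. *Serpina6* is lowest in the Diff. hepatocytes, where *H6pd* is level with the mature hepatocytes and *Hsd11b1* far below them.

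*Dusp1* encodes MKP-1, a phosphatase that switches off stress-activated MAP kinases, and it is both a glucocorticoid target and an immediate-early gene of stress and growth factors. It was the only member lower in the cultured cells than in hepatoblasts. Hepatoblasts held 79.4, 47.5, 70.1 and 56.9 CPM of *Dusp1*, Diff. hepatocytes 35.9, 27.8, 28.4 and 25.05 CPM, and mature hepatocytes 278, 165, 337 and 334 CPM. The 3 groups did not overlap. The log2 fold change was -1.12 ± 0.22 in Diff. hepatocytes against hepatoblasts (edgeR, adjusted p = 0.000661), 2.13 ± 0.22 in mature hepatocytes against hepatoblasts (adjusted p = 1.33e-06), and -3.25 ± 0.23 in Diff. against mature hepatocytes (adjusted p = 6.04e-08). The first of these sat at the fold threshold and dropped to -0.98 without hepatoblasts replicate 1. The annotated span of *Dusp1* overlaps *Ergic1* on the other strand, which stood at 132, 150.1 and 117 CPM in hepatoblasts, Diff. hepatocytes and mature hepatocytes, and its part in the *Dusp1* values was not tested.

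The summed level of 12 immediate-early genes was also lowest in the Diff. hepatocytes, at 379 to 390 CPM against 2097 to 3433 CPM in hepatoblasts and 1520 to 3100 CPM in mature hepatocytes. Between Diff. hepatocytes and hepatoblasts 9 of these 12 genes were called, all lower in culture, beside 14% of all tested genes called lower. The median of the 12 was -2.60 log2 units. *Fos* stood at -6.39, *Fosb* at -8.42, *Jun* at -4.13 and *Egr1* at -3.25. Against mature hepatocytes 8 were lower and 1 higher, with a median of -2.69, beside 15.6% and 20.2% of all tested genes. Both freshly lysed groups went through enzymatic dissociation just before lysis, and the part of that step in the *Dusp1* values was not tested. Within the mature hepatocytes, replicate 2 had both the lowest *Dusp1* and the lowest summed level, while in hepatoblasts replicate 1 had the highest *Dusp1* and the lowest sum.

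**Figure D3:**
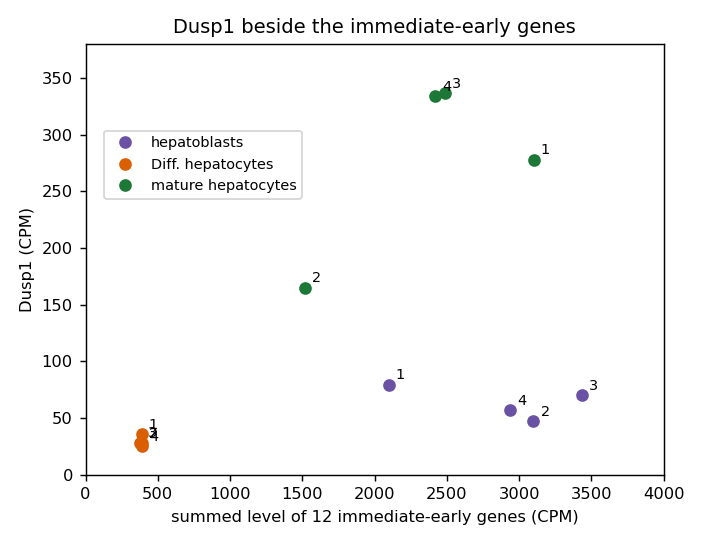
*Dusp1* (CPM) against the summed level of 12 immediate-early genes (CPM) in each library, with replicate numbers beside the points. The 4 Diff. hepatocyte libraries sit together near the origin, between 379 and 390 CPM on the x axis. Mature hepatocytes lie above hepatoblasts on the y axis, with sums of 1520 to 3100 CPM against 2097 to 3433 CPM.

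The *Dusp1* window and 1 of the 2 *Errfi1* windows each held the palindromic cyclic AMP response element TGACGTCA, which 1.79% of all windows contain. Neither held a glucocorticoid half-site, and no window of the 8 genes held the AP-1 element TGAGTCA in either orientation, which 5.2% of all windows do. These searches were added after the levels had been seen. The pieces are printed on the strand of their gene, with the element in capitals. *Dusp1* and *Errfi1* went in opposite directions in culture, and use of the element was not tested.

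Dusp1, chr17:26508597-26508626 (minus strand): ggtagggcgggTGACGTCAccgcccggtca
Errfi1, chr4:150855008-150855037 (plus strand): gctgcgggcgtTGACGTCAcgttgtcgctc

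The comparisons with mature hepatocytes gave other directions for several members. Between mature hepatocytes and hepatoblasts, 6 of the 8 genes were called, all higher, beside 44.8% of all tested genes called, 20.1% higher and 24.7% lower. The median of the members was 2.70, against -0.15 for all tested genes. Between Diff. and mature hepatocytes 7 of 8 were called, 3 higher (*Fkbp5*, *Sgk1* and *Zbtb16*) and 4 lower (*Dusp1*, *Errfi1*, *Tat* and *Hsd11b1*), beside 35.8% of all tested genes, 20.2% higher and 15.6% lower. The median was -1.14, against 0.09 for all tested genes. Other cell types differed here too. Against mature hepatocytes, 4 of 5 mesenchymal and 3 of 5 bile duct markers were called higher in culture, and 6 of 6 endothelial lower. Summed mesenchymal markers were 782 to 1924 CPM in Diff. and 39.9 to 56.1 CPM in mature hepatocytes. In mature hepatocytes against hepatoblasts 4 of 5 mesenchymal markers were called lower and 3 of 6 endothelial higher. The part of other cells in these differences was not tested. Each pair of groups that did not overlap for a member gave a two-sided exact permutation p of 0.0286, the smallest that 4 against 4 libraries allow. Scaling to library totals in place of TMM moved the median of all genes by -0.32 for Diff. hepatocytes against hepatoblasts, -0.85 for mature hepatocytes against hepatoblasts and 0.53 for Diff. against mature hepatocytes. The share of calls that were higher then went from 51.5% to 35.4%, from 44.9% to 20.2% and from 56.4% to 75.6%, and no called member changed direction. On that scale *Fkbp5* was called lower in mature hepatocytes than in hepatoblasts, at -1.45.

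**Figure D4:**
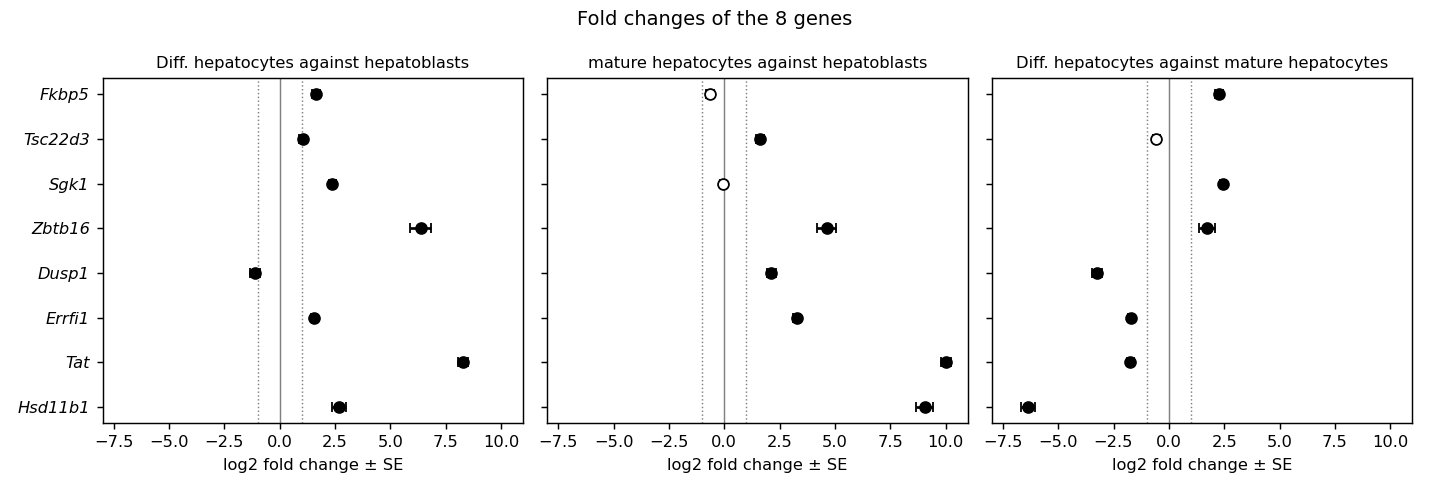
Log2 fold changes of the 8 genes with standard errors in the 3 comparisons, from the edgeR fit of 12 libraries. Filled points passed the call, open points did not, and dotted lines stand at a log2 fold change of 1 in either direction. *Fkbp5* and *Sgk1* are filled in the 2 panels that involve the Diff. hepatocytes and open in the middle panel, and *Hsd11b1* has the lowest value of the third panel, at -6.37.

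Set against each other per length (counts per kilobase of merged exons, scaled to the same total in each library), the members changed rank between groups. In hepatoblasts *Errfi1* led at 180.4 ± 29.6 (SD, n = 4), followed by *Dusp1* at 67.2 ± 18.7 and *Fkbp5* at 31.7 ± 2.69, while *Tat* stood at 3.35 ± 0.09. The libraries of *Sgk1* (25.3) overlapped those of *Fkbp5* above it and of *Tsc22d3* (16.3) below it, which did not overlap each other. Those of *Zbtb16* (0.982) and *Hsd11b1* (0.949) overlapped at the foot. In Diff. hepatocytes *Tat* led at 734 ± 139, before *Errfi1* at 375 ± 24.1, *Sgk1* at 91.7 ± 11.7, *Fkbp5* at 69.5 ± 5.91 and *Zbtb16* at 53.4 ± 4.28. *Tsc22d3* (23.1) and *Dusp1* (21.7) overlapped there and *Hsd11b1* was last at 4.14 ± 1.64. In mature hepatocytes *Tat* at 1411 ± 176, *Errfi1* at 712 ± 108, *Hsd11b1* at 196 ± 8.87 and *Dusp1* at 116 ± 28.3 led, and *Tsc22d3* followed at 19.8, below its mean in the Diff. hepatocytes but with overlapping libraries. *Sgk1* (9.70), *Zbtb16* (9.21) and *Fkbp5* (8.52) came last with overlapping libraries.

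The receptor itself was not called in culture. *Nr3c1*, the glucocorticoid receptor gene, ranged over 54.1 to 60.5 CPM in the hepatoblast libraries and over 57.7 to 67.8 CPM in the Diff. hepatocytes, and from 116 to 136 CPM in mature hepatocytes. Its log2 fold change in culture was 0.14, with a 95% interval from -0.03 to 0.31 (edgeR, adjusted p = 0.151), and 1.13 ± 0.08 in mature hepatocytes against hepatoblasts (adjusted p = 3.05e-08). *Nr3c2*, the mineralocorticoid receptor, which also binds glucocorticoid, stood at -0.10 in culture and was called higher in mature hepatocytes (3.47-fold). Of 8 receptor and chaperone genes, 2 were called in Diff. hepatocytes against hepatoblasts, a share close to the 28.9% of all tested genes. These were *Hsp90aa1* (-1.24) and *Fkbp4* (-1.23), both lower. *Fkbp4* encodes FKBP52, the co-chaperone that favours hormone binding, and its mean level was 480 CPM in hepatoblasts and 204 CPM in culture, the opposite order to *Fkbp5*. The 7 receptor cofactors, among them *Ncoa1*, *Crebbp* and *Ncor1*, lay between -0.56 and 0.46 in culture, inside the fold threshold.

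A list of 24 other genes known to be induced by glucocorticoid in liver or elsewhere also went in both directions. The list was chosen with earlier results of these data known. In Diff. hepatocytes against hepatoblasts 16 were called higher, 5 lower and 3 were not called, with a median log2 fold change of 2.73. Over all tested genes 14.9% were called higher and 14% lower. The enzymes and regulators of glucose production were among the 16, with *Pck1* at 4.71 and *G6pc* at 7.50, as were the transcription factor genes *Klf9* (4.06), *Cebpb* (1.34), *Cebpd* (1.55) and *Bcl6* (2.77). *Ddit4*, an inhibitor of mTORC signalling, stood at 3.97, *Pdk4*, which restrains pyruvate oxidation, at 2.73, and *Igfbp1*, a secreted IGF-binding protein, at 4.27. The acute-phase genes *Orm1* (8.98) and *Lcn2* (5.54) and the cell cycle inhibitor *Cdkn1a* (3.93) were also higher.

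The 5 that were lower in culture were *Nfkbia* (-2.44), the inhibitor of NF-kB, the metallothioneins *Mt1* (-2.74) and *Mt2* (-3.28), *Tgm2* (-1.50), a transglutaminase, and *Zfp36* (-3.02), which destabilises cytokine mRNA and is itself an early-response gene. *Per1* at 0.50, *Per2* at -0.60 and *Glul* at -0.83 were not called. Against mature hepatocytes 8 of the 24 were higher in culture and 9 lower, beside 20.2% and 15.6% of all tested genes. *Lcn2* (6.72), *Cdkn1a* (4.84), *Igfbp1* (3.28), *Pdk4* (3.16) and *Ddit4* (2.82) were on the side of *Fkbp5* and *Sgk1*. So were *Mt2* (2.65), *Mt1* (1.38) and *Cebpd* (1.33), although the metallothioneins were lower in culture than in hepatoblasts. *Tdo2*, which starts tryptophan breakdown, was on the side of *Hsd11b1*, at -10.36, with 1.42 to 1.77 CPM in Diff. hepatocytes and 1718 to 2804 CPM in mature hepatocytes. *Sds* (-5.59), *Pck1* (-3.35), *G6pc* (-2.99) and *Klf9* (-1.20) were lower as well. In mature hepatocytes against hepatoblasts 11 were called higher and 4 lower, beside 20.1% and 24.7% of all tested genes. The median of the 24 was 0.95.

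**Figure D5:**
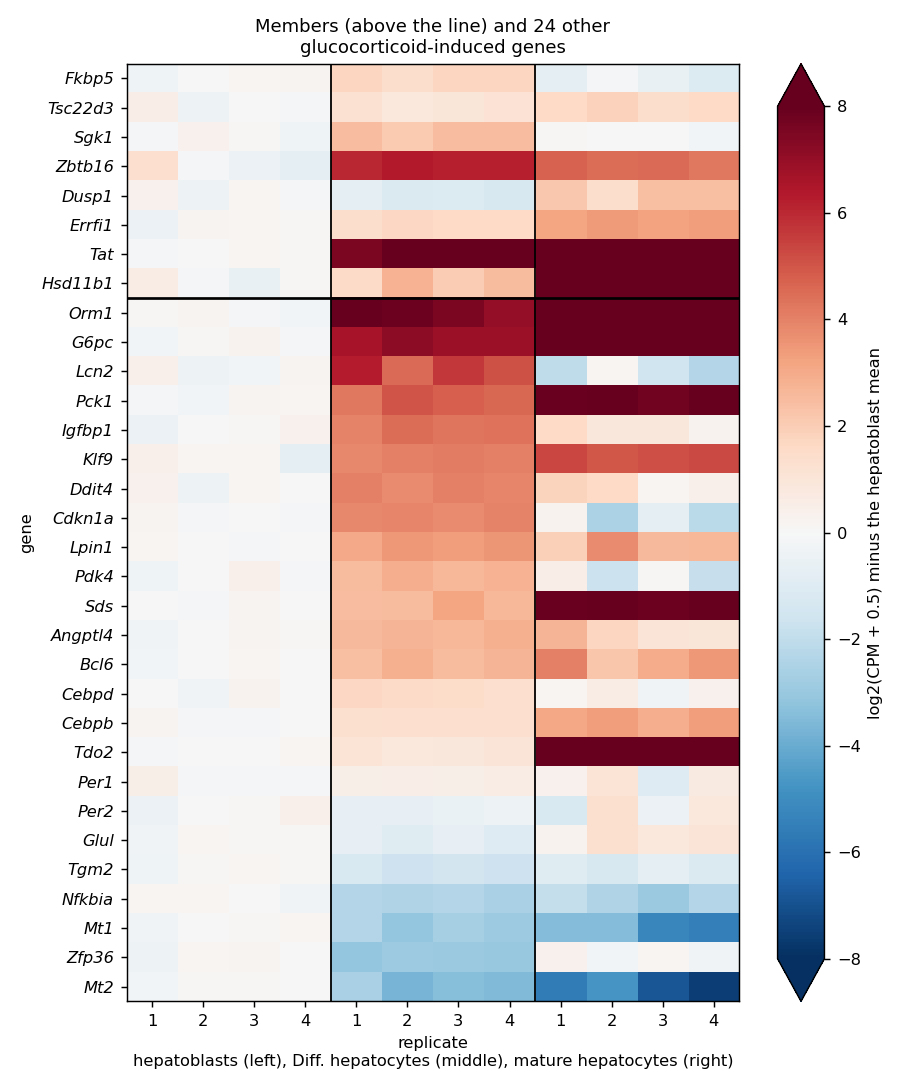
Level of each gene in each library as log2(CPM + 0.5) minus the mean of the 4 hepatoblast libraries, with colours saturating at 8 log2 units. The 8 genes are above the line and 24 other glucocorticoid-induced genes below it, ordered by their mean in the Diff. hepatocytes. *Lcn2*, *Cdkn1a* and *Pdk4* are red in the Diff. hepatocytes and not in the mature hepatocytes, as *Fkbp5* and *Sgk1* are.

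Relatives of the members did not follow them as families. In Diff. hepatocytes against hepatoblasts *Tsc22d2* (1.13) and *Dusp4* (2.07) were called higher, *Dusp2* (-3.97) and *Dusp5* (-1.88) lower, and the other 6 of 10 were not called. Over all tested genes 28.9% were called in this comparison. *Sgk2* (0.95) and *Sgk3* (0.14) were not called in culture. In mature hepatocytes *Sgk2* was higher than in hepatoblasts (2.30) and *Sgk3* lower (-1.55), where *Sgk1* stood at -0.07. *Nedd4l*, whose product SGK1 phosphorylates, was higher in both, at 2.15 in culture and 1.21 in mature hepatocytes.

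The libraries of a group also differed among themselves. In the mature hepatocytes replicate 2 held the most *Fkbp5* (78.7 CPM), *Tsc22d3* (70.4 CPM) and *Errfi1* (1952 CPM). It also held the most *Per1* (75.4 CPM) and *Per2* (97.8 CPM), 2 clock genes that glucocorticoid also induces. The least *Dusp1* and *Hsd11b1* (525 CPM) were in the same library, and its *Sgk1*, *Zbtb16* and *Tat* lay within the range of the others. *Per2* ranged from 16.7 to 97.8 CPM over the 4 mature libraries and from 24.8 to 29.7 CPM over the Diff. hepatocytes. The hour at which the mice were killed was not given in the sources used here. The coefficient of variation of *Fkbp5* was 29.4% in mature hepatocytes and 9.25% in Diff. hepatocytes.

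Over the 12 libraries, the genes whose log2 CPM ran closest to 7 of the members are given as a description. Pearson's r was highest with *Saa3* for *Fkbp5* (0.986), *Vmn2r3* for *Sgk1* (0.988), *Ank* for *Zbtb16* (0.986), *Stat6* for *Tsc22d3* (0.978), *Hsd17b4* for *Errfi1* (0.997), *Ces1b* for *Hsd11b1* (0.995) and *Abhd16a* for *Dusp1* (0.989), among 8696 genes compared. All of these values share the 12 libraries and their 3 groups. Among the members themselves *Fkbp5* and *Sgk1* were alike (0.93), *Errfi1* and *Hsd11b1* were alike (0.96), and *Fkbp5* and *Dusp1* were opposed (-0.90).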

How the data were processed

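The authors sequenced 75-base single reads of poly(A) RNA and deposited a table of raw counts per Ensembl gene. Per the labels and the study's methods, reads were aligned with STAR 2.5.2b to GRCm38 and checked with FastQC 0.11.2 and Picard 2.10.2, and DESeq2 1.22.2 was the study's test. Library preparation was strand-specific according to the study's methods. How strand entered the counting was not given in the sources used here. No normalization had been applied to the deposited counts.

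Groups came from the sample titles. The 17779 genes that exceeded 10 counts in at least 1 library were kept, scaled by TMM and fitted in 1 model of 3 groups with edgeR 4.0.16 (glmQLFit and glmQLFTest, R 4.3.3), with Benjamini-Hochberg adjustment over all genes tested. All 8 members passed the filter. The standard error is the absolute log2 fold change over the square root of F. Log2 CPM used a prior count of 2. Totals between 19581551 and 25216977 counts put the limit that 0 counts allow (3 counts) between 0.0896 and 0.206 CPM, which covers counting error only. Replicates differed by more than sampling noise in every group. Coordinates and exon lengths came from GENCODE M21, where 53620 of 53715 genes matched, and promoter windows from RefSeq (GRCm38.p6), with 7 of 8 members matched. The shared 75-base stretches were at most 0.134% of a member's transcripts (*Zbtb16*). The script was tested on simulated data. The alternatives were DESeq2 1.42.0, thresholds inside the test, 3 scalings, 3 filters, a fit of 2 groups, a replicate block and leaving out libraries. The members and gene lists were chosen with earlier results of these data known. The text names all 8 members, genes of the lists that passed the call or stand beside a member, and the gene most like each of 7 members, while that for *Tat* is not reported here.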

Additional observations from a re-analysis of the deposited data

Results flagged for a closer look

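Dixon's test was applied to the 4 libraries of each group for each of the 8 genes, 24 sets in all, of which chance alone gives about 1.2 and 4 stood out. In Diff. hepatocytes replicate 2, *Fkbp5* was at 232.499 CPM against 279 to 284 CPM in the other 3 libraries. In the same library *Sgk1* was at 147.911 CPM against 196 to 198 CPM. Both remained above every library of the other groups. In hepatoblasts replicate 1, *Zbtb16* was at 3.57948 CPM, from 111 counts, against 0.431 to 0.955 CPM, and *Errfi1* was at 130.699 CPM against 199 to 213 CPM. That library also had the highest sums of the 6 erythroid (2276 CPM), 8 macrophage (293 CPM) and 6 endothelial (126 CPM) markers among the hepatoblasts, where the others had at most 453, 83.4 and 56.7 CPM, with no marker at 0. Their part in the *Zbtb16* and *Errfi1* values was not tested.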

How the results depend on the processing

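The 8 genes gave 600 values under 25 alternatives, of which 581 kept direction and call, 14 lost the call, 4 gained it and 1 changed sign. The sign change was *Sgk1* in mature hepatocytes against hepatoblasts, which was not called and ranged from -0.183 to 0.0507 with a library left out and reached -0.92 with library totals. Members called ranged from 6 to 8 for Diff. hepatocytes against hepatoblasts, from 6 to 7 for the mature hepatocytes against these, and from 6 to 8 for Diff. against mature hepatocytes. Without hepatoblasts replicate 1 and Diff. hepatocytes replicate 1, an alternative added after seeing the data, they stood at 8, 6 and 7. Same-numbered libraries did not deviate together throughout, with correlations from -0.08 to 0.32 over all comparisons. In Diff. hepatocytes against hepatoblasts the correlations were 0.32, -0.06, 0.25 and 0.18 for replicates 1, 2, 3 and 4. With a replicate block 8, 6 and 7 members and 5220, 7988 and 6359 genes were called. Over all genes, calls in the same order were 2966 in the first and 4221 in the third with the threshold in the edgeR test, 2504, 4923 and 3528 with it in DESeq2, 10615, 12870 and 11580 at an adjusted p under 0.05 with no fold threshold, and 2634, 4379 and 3107 with at least 10 counts in every library. Fewer genes were tested in the last, and the first 2 tests ask for a change beyond 1. Threshold tests ended the calls of *Tsc22d3* and *Dusp1* in the first comparison. Scaling to totals made *Fkbp5* lower in mature hepatocytes than in hepatoblasts (-1.45), and the cause was not tested.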
